A study of Mus musculus with 4 samples.

Results

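The effector-like cells were the thymic regulatory T (Treg) cells in which transcripts of 6 genes, Gzmb, S100a4, S100a6, Lgals3, Cxcr6 and Il1r2, together gave at least 2 unique molecular identifiers (UMIs, 1 for each captured transcript molecule). They numbered 96 of the 7231 cells that the authors' normalized table lists as G1 cells, out of 8273 cells in the count table. They were set against the 6944 G1 cells with 0 UMIs of those genes, and the 191 cells with exactly 1 UMI were kept apart. The members were chosen on measured UMIs, so the levels of the 6 rule genes are given only as a description.

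The series captured single cells from the thymus of mice aged 3 weeks, after sorting for CD4+CD8-Thy1.1+GFP+ cells. Its 4 samples were 1 IL2 o/o (knockout), 1 IL15 o/o, 1 IL2 wt/wt and 1 IL15 wt/wt, and all 4 strains shared the Rag2-Gfp and Foxp3-Thy1a reporters on a B6 background. In such animals the Foxp3 reporter puts Thy1.1 on Treg cells, and GFP under Rag2 control marks cells that recently made their antigen receptor. The stated question was what IL-2 and IL-15 each contribute to how Treg cells develop and differentiate. No label ties a barcode suffix to a genotype, so the 4 suffixes are called libraries 1 to 4, and knockout and wild-type cells could not be compared.

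Effector Treg cells are Treg cells that have met antigen and taken on a programme for tissues: they lose the receptors that route naive cells through blood and lymph nodes and gain adhesion molecules, inhibitory receptors and, in some tissues, granzymes. S100 proteins bind calcium and, with annexins, act at the membrane and the actin skeleton, while IL1R2 is a decoy receptor that binds IL-1 without signalling.

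The promoters of the S100 genes are shown because S100a4 and S100a6, which lie close together on chromosome 3 and chose many members, belong to 1 family with S100a11, a leading gene that the rule did not use. Each is the 250 bases upstream of the gene start in RefSeq on GRCm38.p6, plus strand, at chr3:90603520-90603769, chr3:90612644-90612893 and chr3:93520246-93520495, and capitals mark matches to the AP-1 motif TGANTCA, searched on both strands.
S100a4: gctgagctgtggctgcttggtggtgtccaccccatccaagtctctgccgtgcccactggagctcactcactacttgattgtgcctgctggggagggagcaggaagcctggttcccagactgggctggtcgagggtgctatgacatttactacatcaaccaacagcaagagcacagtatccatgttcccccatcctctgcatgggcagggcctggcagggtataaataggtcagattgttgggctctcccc
S100a6: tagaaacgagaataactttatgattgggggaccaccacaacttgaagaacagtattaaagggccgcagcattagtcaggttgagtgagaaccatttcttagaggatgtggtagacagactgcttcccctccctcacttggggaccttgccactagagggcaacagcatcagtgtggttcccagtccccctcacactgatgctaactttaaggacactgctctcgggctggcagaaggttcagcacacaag
S100a11: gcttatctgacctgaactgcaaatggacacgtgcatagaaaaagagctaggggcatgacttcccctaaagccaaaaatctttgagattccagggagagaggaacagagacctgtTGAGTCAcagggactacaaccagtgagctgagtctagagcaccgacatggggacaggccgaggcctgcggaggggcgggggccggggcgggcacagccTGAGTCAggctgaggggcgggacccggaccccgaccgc
The S100a11 window held 2 matches, which begin 136 and 38 bases before the start, and the S100a4 and S100a6 windows held none. The motif occurs in 6.75% of the 32851 promoter windows of this length. A match is a string of letters and not a measured binding site.

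Depth differed between the groups and is given before the results because it touches all of them. The median effector-like cell had 6934 UMIs and 2184 genes, and the median 0-UMI cell had 3104.5 UMIs and 1291 genes. A deeper cell reaches 2 rule UMIs more readily, and 64 of the 96 effector-like cells lay in the deepest of 5 depth bins, against 1265 of the 6944 0-UMI cells. Within that bin the medians were 9034 UMIs in effector-like cells and 6446 UMIs in 0-UMI cells. The comparisons below match depth by bin and not beyond it. The G1 cells of a library summed to between 5201122 and 9112711 UMIs. Of 8246 distinct barcodes, 27 occurred in more than 1 library, and 0 effector-like cells carried such a barcode.

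Effector-like cells were rare in every library. Library 1 held 24 among 1397 G1 cells (1.72%, exact Clopper-Pearson 95% interval 1.10 to 2.55%), and library 2 held 37 among 2107 (1.76%, 1.24 to 2.41%). Library 3 held 12 among 1784 (0.673%, 0.348 to 1.17%), and library 4 held 23 among 1943 (1.18%, 0.752 to 1.77%). The interval of library 2 lay above that of library 3, and every other pair of intervals overlapped. These intervals cover counting error only. With every cell thinned to 1886 UMIs, which left out 723 shallower cells (56, 130, 302 and 235 in libraries 1 to 4), 33 of 6508 cells met the rule (0.507%). The thinned shares were 0.522%, 0.506%, 0.270% and 0.703% in libraries 1 to 4, their intervals overlap, and their order differs from that of the full counts.

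**Figure D1:**
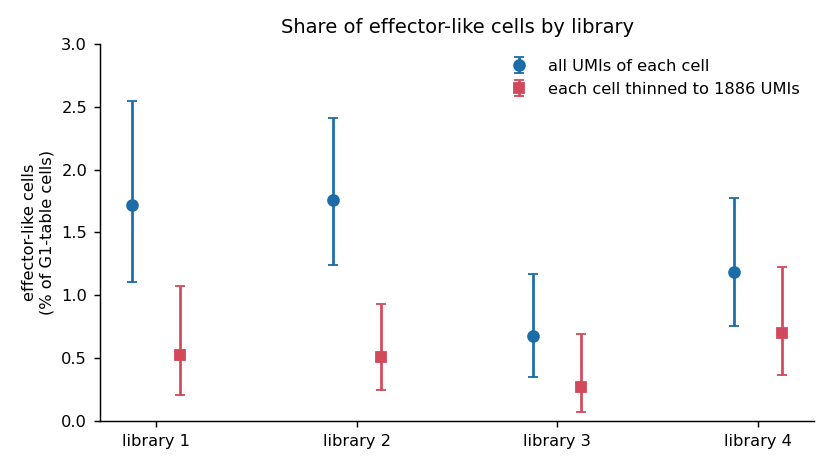
Share of effector-like cells among G1 cells (percent, vertical axis) in libraries 1 to 4, from all UMIs of each cell (circles) and after thinning each cell to 1886 UMIs (squares); bars are exact 95% binomial intervals. Full-depth shares ran from 0.673% in library 3 to 1.76% in library 2, and thinned shares from 0.270% in library 3 to 0.703% in library 4.

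Free transcripts can give a droplet UMIs of genes its cell does not express. Double-positive thymocyte genes were carried by 96 cells of the whole count table, not limited to G1 cells, at a median of 2355.5 UMIs per cell. Of these, 5.21% had any rule UMI and 2.08% had at least 2. Among all G1 cells 3.97% had any and 1.33% had at least 2, at a median of 3157 UMIs. The observed share that met the rule was not lower in this cell type, which should lack most of these genes. It rests on few cells, so a lower share is not excluded. These shares were taken over different tables of cells, and the share alone is not read as expression. The counts per cell were uneven: the 3 highest members had 86, 61 and 28 rule UMIs and 13 members had more than 10, while the median member had 3.

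The rule genes themselves divided the members. S100a6, a calcium-binding protein, gave 233 of the 627 rule UMIs and was found in 42 members, and Il1r2 gave 150 UMIs in 45 members. Lgals3, which encodes the sugar-binding galectin 3, gave 112 UMIs in 34 members, and S100a4 gave 65 in 20. Cxcr6, a chemokine receptor of tissue T cells, gave 34 UMIs in 9 members. Gzmb, the cytotoxic protease granzyme B, gave 33 UMIs in 5 members, of which 25 came from 1 cell. The label's granzyme therefore describes 5 cells, while S100 and Il1r2 transcripts describe most of the 96. By library, S100a6 stood at 316, 368, 136 and 215 counts per 1000000 UMIs (CPM) in the effector-like cells of libraries 1 to 4, and Gzmb at 4.52, 98.7, 24.7 and 0 CPM.

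Most members, 56, carried 1 rule gene only: 32 carried Il1r2, 16 Lgals3, 7 S100a6 and 1 Cxcr6. Another 27 carried 2 rule genes, 9 carried 3, and 4 carried more than 3. S100a4 was accompanied by S100a6 in 18 of its 20 cells and Gzmb by S100a6 in 5 of 5. Il1r2 and Gzmb were found together in 0 cells, and Il1r2 and S100a6 in 9. Just inside the threshold lay 37 cells with 2 rule UMIs, and just outside it 191 cells with 1.

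For every other gene, the UMIs observed in the effector-like cells were divided by the number that 0-UMI cells of the same library and depth bin would give, with 0.5 added to both, and the log2 of that ratio carries an approximate 95% counting interval. A gene was called when it had at least 200 UMIs over both groups, was 1.5-fold or more apart, had an interval clear of 0, and moved the same way in each library with 20 cells or more on both sides, which leaves library 3 unchecked. The CPM given below for 0-UMI cells are weighted to the depth bins of the effector-like cells. Cells are not replicates and there is no p-value. Of 7507 genes, 273 (3.64%) were called higher and 234 (3.12%) lower in effector-like cells, and the median log2 ratio over all genes was 0.01. These shares over all genes are the background for the lists below, whose genes also needed 200 UMIs to be called. In library 3, which entered the ratios but not the check of direction, 191 of the 273 and 206 of the 234 pointed the same way. Leading genes were named for their ratios, so whether their library values overlapped is a description and was not compared with all genes.

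The highest ratio belonged to Ly6a (chromosome 15, 74994877 to 74998031, GRCm38), which encodes the surface protein Sca-1 of activated and memory T cells. Ly6a stood at 76.9, 42.8, 346 and 53.7 CPM in effector-like cells of libraries 1 to 4, against 5.28, 9.79, 59.5 and 9.57 CPM in 0-UMI cells. The groups were apart in all 4 libraries, and library 3 was highest in both. The summed count was 68 UMIs where 10.7 were expected, a 6.09-fold ratio (log2 2.61, 2.21 to 3.00), but only 13 of the 96 cells held these UMIs. Ly6a has close relatives, and the sources used here do not say how reads shared between them were counted.

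S100a11 (chromosome 3, 93520496 to 93526288), a calcium-binding partner of annexins, was spread more widely. It stood at 271, 125, 124 and 177 CPM in effector-like cells, against 38.3, 36.9, 33.7 and 43.3 CPM in 0-UMI cells. Each effector-like value lay above every 0-UMI value, 46 of the 96 cells had a UMI, and the ratio was 4.57-fold (log2 2.19, 1.92 to 2.47).

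Ccl5 (chromosome 11, 83525778 to 83530518), a chemokine that draws T cells and is made by effector and memory lymphocytes, was at 289, 132, 432 and 274 CPM in effector-like cells and at 68.9, 40.2, 11.9 and 50.4 CPM in 0-UMI cells. The groups did not overlap across libraries, and the ratio was 4.97-fold (log2 2.31, 2.07 to 2.55) with 42 cells positive. Nkg7, a protein of cytotoxic granules, was at 737, 484, 383 and 274 CPM in effector-like cells, against 319, 265, 60.9 and 194 CPM in 0-UMI cells (log2 1.03, 0.87 to 1.18). The effector-like cells of library 4 lay below the 0-UMI cells of library 1, so here the order held within libraries and not across them. Xcl1, a chemokine for cross-presenting dendritic cells, had 46 UMIs where 14.4 were expected (log2 1.65), in 13 cells and in 0 of library 3.

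Receptors and adhesion molecules of effector Treg cells were also among the leading genes. Lag3 (chromosome 6, 124904359 to 124912434), an inhibitory receptor that binds MHC class II, stood at 67.8, 75.7, 0 and 21.5 CPM in effector-like cells, against 15.5, 8.15, 5.98 and 5.62 CPM in 0-UMI cells (log2 2.42, 1.91 to 2.93). Library 3 gave 0 UMIs. Icos, a costimulatory receptor that effector Treg cells depend on, was at 76.9, 95.4, 61.8 and 80.6 CPM in effector-like cells and 33.6, 24.3, 45.2 and 36.0 CPM in 0-UMI cells (log2 1.37, 1.00 to 1.75), with no overlap across libraries. Itgb1, the integrin beta chain by which cells grip matrix, was at 99.5, 72.4, 86.5 and 86.0 CPM in effector-like cells against 37.1, 31.3, 25.2 and 31.2 CPM in 0-UMI cells (log2 1.37, 1.00 to 1.75). Epcam, an adhesion molecule best known from epithelium, was at 76.9, 65.8, 24.7 and 32.2 CPM in effector-like cells, against 12.1, 10.03, 14.5 and 15.8 CPM in 0-UMI cells (log2 2.14, 1.67 to 2.61). It came from 26 cells, at most 5 UMIs in any of them.

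The other genes among the 15 with the highest ratios were B930036N10Rik (log2 2.11), the orphan nuclear receptor Nr4a2 (1.79), the transcriptional regulator Id2 (1.70), the prostaglandin E2 receptor Ptger2 (1.63), the phosphatase Ubash3b, which dampens antigen receptor signals (1.60), the protease inhibitor Serpine2 (1.44) and Pdcd1lg2, which encodes the PD-1 ligand PD-L2 (1.43). In all, 71 of the called genes were more than 2-fold higher, and in 0 of the 273 did 1 cell give more than 50% of the UMIs.

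**Figure D2:**
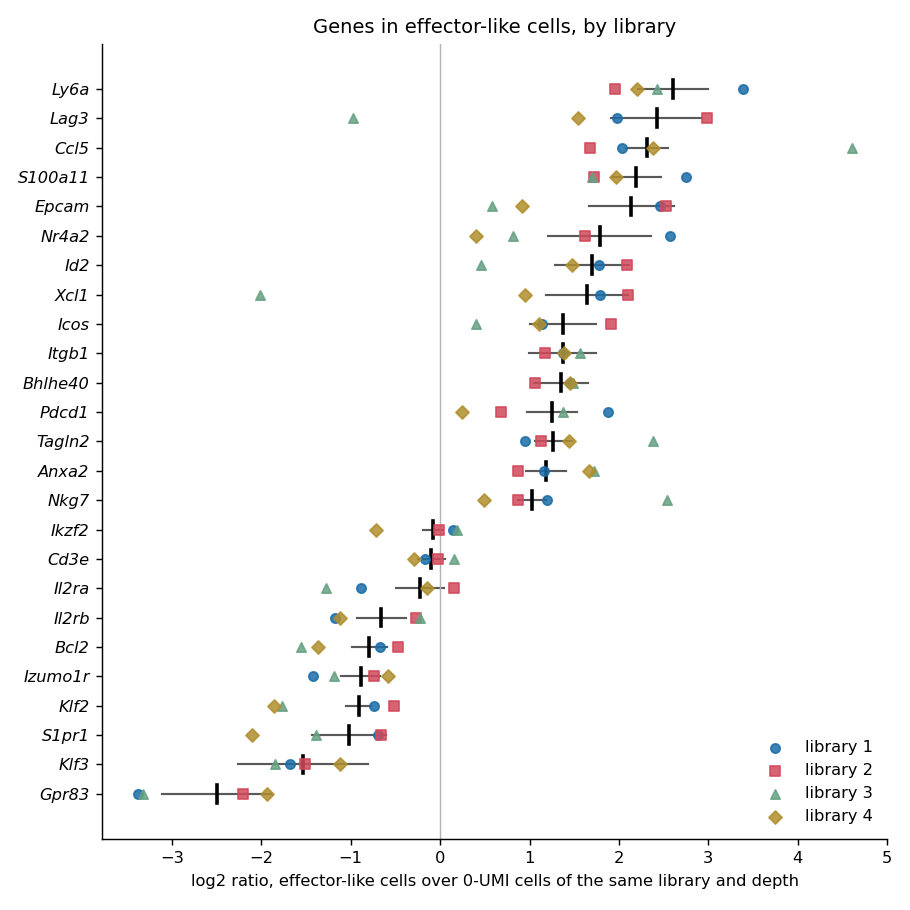
Log2 ratio of effector-like over 0-UMI cells of the same library and depth (horizontal axis) for 25 named genes, over all libraries (black ticks, with 95% counting intervals) and in each library (coloured points). Ly6a (2.61) lies highest and Gpr83 (-2.50) lowest, and the library 3 points of Lag3 and Xcl1 lie below 0 because effector-like cells gave 0 UMIs there.

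Among the 15 genes with the lowest ratios, Gpr83 (chromosome 9, 14859880 to 14870789), a G protein-coupled receptor highly expressed by Treg cells, rested on the most UMIs. It was at 13.6, 36.2, 0 and 37.6 CPM in effector-like cells, against 162, 173, 55.4 and 151 CPM in 0-UMI cells. The groups did not overlap, and 21 UMIs were observed where 121 were expected, which is 5.65-fold lower (log2 -2.50, -3.11 to -1.89). The remaining genes at this end were sparse. Hace1 and Ganc gave 0 UMIs in effector-like cells where 8.47 and 7.85 were expected, so that at the 3 counts a count of 0 allows over the group they were at least 2.82-fold and 2.62-fold lower. The other 12 of the 15 lowest ratios belonged to Sfmbt2, B3galnt2, Gm19585, Rrm2b, 9930111J21Rik2, Tceanc2, Gm13546, Gm29666, Ifit1bl1, Gata1, 2610037D02Rik and Iigp1. Of the 234 lower calls, 23 rested on at most 3 UMIs in the effector-like cells.

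Genes of effector Treg cells were higher as a list. Of 17 measured, 13 reached 200 UMIs, 7 were called higher and 0 lower, with a median log2 ratio of 0.93 against 0.01 for all genes. The median was 1.14, 0.66, 0.46 and 1.05 in libraries 1 to 4. Besides Lag3, Icos and Id2, these were Pdcd1, the inhibitory receptor PD-1 (1.26), Itgae, the CD103 chain that binds epithelial cadherin (1.19), the memory marker Cd44 (0.93) and Batf, an AP-1 factor needed for effector Treg differentiation (0.73). Batf was at -0.27 when members were chosen without Il1r2, where the list's median was 1.57. Maf and Ccr8, known from tissue Treg cells, had log2 ratios of 2.37 and 1.05 but under 200 UMIs. Tigit and Prdm1 gave 0 UMIs in effector-like cells, but only 1 and 21 in all 0-UMI cells, too few to show a difference. The list was chosen with results of these cells known, so its direction is a description.

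Transcription factors of effector T cells pointed the same way: 4 of 14 were called higher and 0 lower, with a median of 0.94. Id2 was at 58.8, 79.0, 61.8 and 69.8 CPM in effector-like cells, against 15.6, 17.3, 43.3 and 23.5 CPM in 0-UMI cells, apart in all libraries. Bhlhe40, a repressor induced by antigen receptor signals, stood at 140, 109, 173 and 140 CPM in effector-like cells against 49.7, 51.4, 57.7 and 49.5 CPM in 0-UMI cells (log2 1.35, 1.05 to 1.65). The aryl hydrocarbon receptor Ahr (1.36) and Batf were the others. The list's median was 0.35 when the members were chosen without Il1r2.

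Of the 27 measured S100, annexin, galectin and actin-binding genes other than the rule's, 7 were called higher and 0 lower, but the median was only 0.12. It was 0.34 when members were chosen without Il1r2 and 0.45 in thinned cells. The called genes were S100a11, Tagln2, an actin-bundling protein (log2 1.27), the giant scaffold Ahnak (2.30-fold), Anxa2 (1.18), its partner S100a10 (0.90), Lgals1 (0.69) and Capg (0.65). Anxa2 stood at 222, 253, 74.1 and 295 CPM in effector-like cells, against 98.0, 138, 18.1 and 91.3 CPM in 0-UMI cells of the same libraries, higher in all 4. General cytoskeletal genes of the same list gave log2 ratios near 0: Actb 0.11, Pfn1 -0.01 and Cfl1 0.01. The intermediate filament gene Vim, at -0.02 over all members, was at -1.26 (-1.58 to -0.94) in members with Il1r2 as their only rule gene and at 0.40 (0.23 to 0.58) in members without Il1r2.

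The cytotoxic and chemokine list had 3 of 10 measured genes called higher and 0 lower, with a median of 0.44. The 3 called higher were Ccl5, Xcl1 and Nkg7. Cst7, a granule protease inhibitor, had a log2 ratio of 2.31 with 37 UMIs, under the count needed for a call. Granzyme A gave 2 UMIs where 5.35 were expected. Perforin and interferon gamma gave 0 UMIs in effector-like cells, but only 5 and 6 in all 0-UMI cells. Granzyme K gave 0 UMIs in the whole count table. The 0 UMIs of these 3 genes are therefore not read as a difference. Of chemokine receptor and adhesion genes, Itgb1, Cxcr4 (1.29), Gpr183 (1.01) and Itgav (0.85) were called higher among 15. The list's median was -0.22, and 0.29 when members were chosen without Il1r2.

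Many genes of late maturation and thymic exit were lower. Of 17 measured, 9 were called lower and 1 higher, with a median of -0.72, and of -0.67, -0.40, -1.13 and -0.85 in libraries 1 to 4. S1pr1, the sphingosine phosphate receptor by which T cells leave the thymus, stood at 67.8, 75.7, 49.4 and 26.9 CPM in effector-like cells, against 111, 120, 139 and 124 CPM in 0-UMI cells (log2 -1.02, -1.43 to -0.60). Klf2, the factor that drives S1pr1, had 413 UMIs where 777 were expected (log2 -0.91, -1.05 to -0.77). Gimap4, of a family of GTPases of lymphocyte survival, was at -1.01 and Ms4a6b at -0.97. The gene called higher was Il7r, the IL-7 receptor (0.84). Dapl1 had a log2 ratio of 2.48 but differed in direction between libraries, with 357, 82.3, 74.1 and 0 CPM in effector-like cells and 10.6, 31.6, 20.2 and 30.5 CPM in 0-UMI cells, and was not called.

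Genes of resting T cells were lower too, 7 of 14 with 0 higher and a median of -0.59. They included the transcription factors Lef1 (-0.78), Satb1 (-0.72), Bach2 (-0.62) and Klf3 (-1.53). Tcf7, the relative of Lef1, had a ratio of -0.02. Of 20 interferon response genes 7 were called lower and 0 higher, with a median of -0.48, among them Isg15 (-0.71) and the GTPase Iigp1 (-2.01, on 4 UMIs). The interferon median was -0.08 when members were chosen without Il1r2, and the egress median -0.37.

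**Figure D3:**
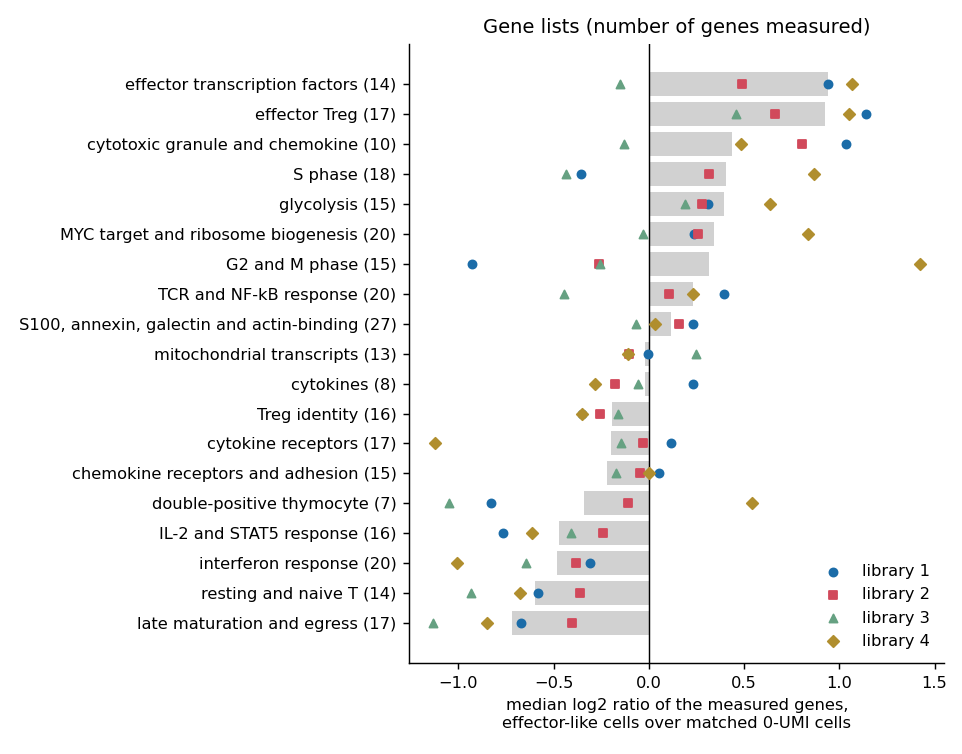
Median log2 ratio of effector-like over 0-UMI cells for each gene list (horizontal axis), over all libraries (bars) and in each library (points), with the number of measured genes in parentheses. Effector transcription factors (0.94) and effector Treg genes (0.93) lie highest and the late maturation and egress list (-0.72) lowest.

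Treg identity was checked against the label. Foxp3, the lineage factor, is sparse in these data and gave 5 UMIs in effector-like cells where 7.83 were expected (log2 -0.60, -1.83 to 0.63), an interval that spans 0. Ikzf2, the Treg factor Helios, had UMIs in 93 of the 96 cells and a ratio of -0.08 (-0.19 to 0.02). Cd3e, a chain of the T cell receptor complex, also had UMIs in 93 cells (-0.10), and Tnfrsf18, the receptor GITR, a ratio of -0.10. Of 16 identity genes 1 was called higher and 4 lower, with a median of -0.20 that was 0.27 in thinned cells. The lower ones were Gpr83, Socs2 (-1.26), Izumo1r, the folate receptor 4 of Treg cells (-0.89), and Il2rb (-0.66), and the higher one Swap70 (0.73).

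The receptors and targets of the cytokines the study is about did not move together. Il2rb, the beta chain that the IL-2 and IL-15 receptors share, stood at 94.9, 194, 124 and 96.7 CPM in effector-like cells, against 217, 234, 146 and 214 CPM in 0-UMI cells (log2 -0.66, -0.93 to -0.38), lower in all 4 libraries. Il2rb kept its call under 18 of 28 alternatives on counts and lost it under 10, with log2 ratios from -1.03 to -0.05. Il2ra, the high-affinity alpha chain, was at 108, 207, 12.4 and 156 CPM in effector-like cells and 203, 186, 38.6 and 173 CPM in 0-UMI cells, with a ratio of -0.22 (-0.49 to 0.04) that was not called. The common gamma chain Il2rg had a ratio of -0.08 (-0.30 to 0.15). Il2 itself gave 32 UMIs where 27.2 were expected, and Il15 gave 0 UMIs where 0.650 were expected.

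Of 16 genes known to respond to IL-2 through STAT5, 5 were called lower and 1 higher, with a median of -0.47. Bcl2, which keeps cells from apoptosis, was at 262, 346, 124 and 188 CPM in effector-like cells, against 420, 480, 375 and 488 CPM in 0-UMI cells (log2 -0.79, -0.99 to -0.59). The others called lower were Socs2, Il2rb, Lta (-1.07) and Ccnd2 (-0.60), and the kinase gene Pim1 was called higher (0.59). The list's median was -0.17 when members were chosen without Il1r2 and -0.00914 in thinned cells. The median also differed against other comparison cells, with some of the list's genes left out. Against cells in none of 3 sets (the effector-like, TCR-signalled and IL-2-signalled cells described at the end), and without the genes that define those sets, 2 of 13 were called higher and 0 lower, with a median of -0.0623. There Bcl2 (-0.39) and Lta (-0.32) were not called and Il2ra was called higher (0.70). Socs2 and Il2rb, called lower above, were among the genes left out. These control cells held no IL-2-signalled cells while the effector-like cells kept theirs, so higher ratios of this list can be built into that comparison. Of 17 cytokine receptor genes 1 was called higher (Il7r) and 3 lower, with a median of -0.20: Il2rb, Il6ra (-0.89) and Ifngr2 (-1.24). Il18r1, the receptor for IL-18, had a log2 ratio of 2.71 with 22 UMIs in 17 cells, under the count needed for a call. Of 8 cytokine genes, the enkephalin precursor Penk was called higher (1.14) and Lta lower, with a median of -0.02.

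Genes induced by antigen receptor and NF-kB signals were mixed. Of 20, 2 were called higher, Nr4a2 and Nfkb2 (0.70), and 4 lower, Egr1 (-1.28), Cd69 (-0.70), Birc3 (-0.70) and Rel (-0.64), with a median of 0.23. Of 20 MYC target genes 2 were called higher, the polyamine enzymes Odc1 (1.34) and Srm (0.72), and 0 lower, with a median of 0.34. Of 15 glycolysis genes 4 were called higher, Pfkl (0.87), Tpi1 (0.82), Pgam1 (0.82) and Aldoa (0.64), and 0 lower, with a median of 0.39. When members were chosen without Il1r2, the MYC median was -0.44, the glycolysis median 0.14 and the TCR and NF-kB median -0.32, and Nfkb2 was at -0.84 and Srm at -1.13. The MYC median was -0.18 in thinned cells and -0.22 without the 5% deepest cells, and the glycolysis median 0.67 in thinned cells.

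The cell cycle lists lay above 0 over all libraries without a call. Of 18 S phase genes 17 had ratios above 1 with a median of 0.41, of 15 G2 and M phase genes 11 had, with a median of 0.32, and 0 genes of either list were called. In libraries 1 to 4 the S phase median was -0.36, 0.31, -0.44 and 0.87. The G2 and M phase median was -0.93, -0.26, -0.26 and 1.42, and it was -0.50 over the other libraries without library 4. At least 2 S phase UMIs were found in 74.0% of effector-like cells and in 69.6% of 0-UMI cells of matched depth. The S phase median was -0.40 without cells that carried cycling genes (21 members left), where the effector Treg median was 1.21. The 13 mitochondrial transcripts had a median of -0.02.

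Markers of other cell types were counted for each list. For the NK, NKT and gamma delta T list, 7.29% of effector-like cells had at least 2 UMIs, against 2.58% of depth-matched 0-UMI cells, and its summed level lay between 12.4 and 109 CPM in effector-like cells and between 20.2 and 28.0 CPM in 0-UMI cells of the 4 libraries. Of its 12 genes found, 5 gave 0 UMIs in effector-like cells, among them Ncr1, which gave 0 in the whole count table. For the epithelial list the shares were 12.5% and 0.999%, with a summed level of 24.7 to 76.9 CPM against 13.7 to 18.8 CPM, but all 45 UMIs were Epcam and the other 5 genes, Krt5, Krt8 and Krt18 among them, were at 0. For the myeloid and dendritic list they were 33.3% and 20.8%, at 113 to 193 CPM against 106 to 144 CPM, with 6 of 10 genes at 0, among them Lyz2, Itgax and Csf1r. Over all libraries this list summed to 154 CPM against 137 CPM. Most of it was Cst3, at 131 CPM in effector-like cells and 126 CPM in the 0-UMI cells in none of the 3 sets. Csf1r was at 0 CPM in both. For the B cell list the shares were 2.08% and 1.46%, at 9.87 to 31.6 CPM against 6.70 to 21.6 CPM, with 4 of 5 genes at 0. For double-positive thymocytes they were 7.29% and 3.53%, at 24.7 to 69.8 CPM against 44.6 to 87.6 CPM, with 3 of 9 genes at 0, and Cd8a gave 2 UMIs. Erythroid genes gave 5 UMIs, with 3 of 5 at 0, at 0 to 61.8 CPM against 0 to 49.6 CPM. The part of cells of other types, or of 2 cells in 1 droplet, in these results was not tested.

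Single members carried transcripts that were rare among these cells, named here after their values were seen. All 11 Klrg1 UMIs of the whole count table, from the gene of a receptor of terminally differentiated effector cells, lay in 2 effector-like cells, and so did all 11 UMIs of Il10, the anti-inflammatory cytokine. The cell with most rule UMIs came from library 2 and held 25 Gzmb, 50 S100a6, 10 Ly6a, 11 Icos and 5 Klrg1 UMIs. Another cell of library 2 held 7 Klrk1, 5 Klrd1, 4 Fcer1g and 2 Klrb1c UMIs, genes of NK cells, beside 10 Cd3d and 5 Cd3e UMIs. A cell of library 4 held 11 H2-Aa UMIs, from an MHC class II gene of antigen-presenting cells. Of the 48 H2-Aa UMIs of the count table, 13 lay in 2 effector-like cells and 23 in 14 of the 0-UMI cells. Without the cell with Klrk1 and Klrd1 and both cells with H2-Aa, an alternative added after seeing the data that left 93 members, 271 genes were called higher and 234 lower.

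The effector-like cells were not uniform, and Il1r2 divided them. When members with and without each rule gene were compared, with no check by library, 65 of 528 genes (12.3%) were called higher and 32 (6.06%) lower with Il1r2. Members with Il1r2 had higher Bcl2a1d, an anti-apoptotic gene (log2 2.12), the cytokine Mif (1.71) and the mitochondrial chaperone Hspd1 (1.45). They had lower Lmo4, a transcriptional adaptor (-1.78), Bcl2 (-1.57), Laptm5, which limits receptor signalling (-1.35), and Klf2 (-1.11). With S100a4, 24 genes (4.55%) were called higher and 31 (5.87%) lower. With S100a6 these were 25 (4.73%) and 65 (12.3%), and with Lgals3 36 (6.82%) and 87 (16.5%).

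The members were then put into 3 groups, formed after these values were seen. Of them, 32 carried Il1r2 as their only rule gene (10, 7, 7 and 8 in libraries 1 to 4), 13 carried Il1r2 with another, and 51 carried no Il1r2 (12, 23, 3 and 13). Their median depths were 9791, 8322 and 5385 UMIs. Each group was set against the same 0-UMI cells, matched by library and depth bin only. The values in the Il1r2-only and no-Il1r2 cells are therefore given side by side, since they share these control cells.

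Many of the leading genes had higher ratios in the cells without Il1r2 than in the Il1r2-only cells. Without Il1r2, Ly6a had 66 UMIs (log2 3.92, 3.54 to 4.30), S100a11 106 (3.13), Ccl5 113 (2.89), Epcam 39 (3.15), Id2 43 (2.57), Icos 57 (2.36), Pdcd1 81 (2.05) and Lag3 29 (3.06). In the Il1r2-only cells, Ly6a had 1 UMI (-1.92, -4.24 to 0.39), S100a11 12 (-0.17), Epcam 2 (-0.93), Id2 6 (-0.23), Icos 8 (-0.39) and Pdcd1 26 (0.19), all with intervals that span 0. Several genes had intervals above 0 in both groups. Lag3 gave 11 UMIs in Il1r2-only cells where 3.32 were expected (1.59, 0.71 to 2.47). Xcl1 gave 28 of its 46 UMIs in the Il1r2-only cells (1.95, 1.39 to 2.52) and 15 in cells without Il1r2 (1.52, 0.78 to 2.26). Ccl5 was at 1.17 in the Il1r2-only cells, Nkg7 at 1.27 there and 1.05 without Il1r2, and Itgb1 at 1.46 and 1.48. Nr4a2 was at 1.44 in Il1r2-only cells and 2.16 without Il1r2, and Ubash3b gave 22 UMIs in Il1r2-only cells where 9.32 were expected and 40 without Il1r2 where 9.41 were expected.

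The Il1r2-only cells, the deepest of these groups, had log2 ratios above 0 for genes of growth and below 0 for genes of rest. The part of depth in these values was not tested. Bhlhe40 was at 1.91 in Il1r2-only cells and -0.11 in cells without Il1r2, Srm at 1.42 and -0.97, Hspd1 at 1.10 and -0.70, and Mif at 0.97 and -0.89. Klf2 was at -1.97 and -0.31, and Bcl2 at -1.97 and -0.26, in the same order. Gpr83 was low in both, at -3.07 in Il1r2-only cells and -2.19 in cells without Il1r2. Summed over lists, the MYC target genes were at 0.83 in Il1r2-only cells and -0.32 without Il1r2, the egress genes at -1.19 and -0.22, and the effector Treg genes at 0.76 and 1.41. The median over the effector Treg genes was 0.21 in Il1r2-only cells and 1.56 without Il1r2.

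**Figure D4:**
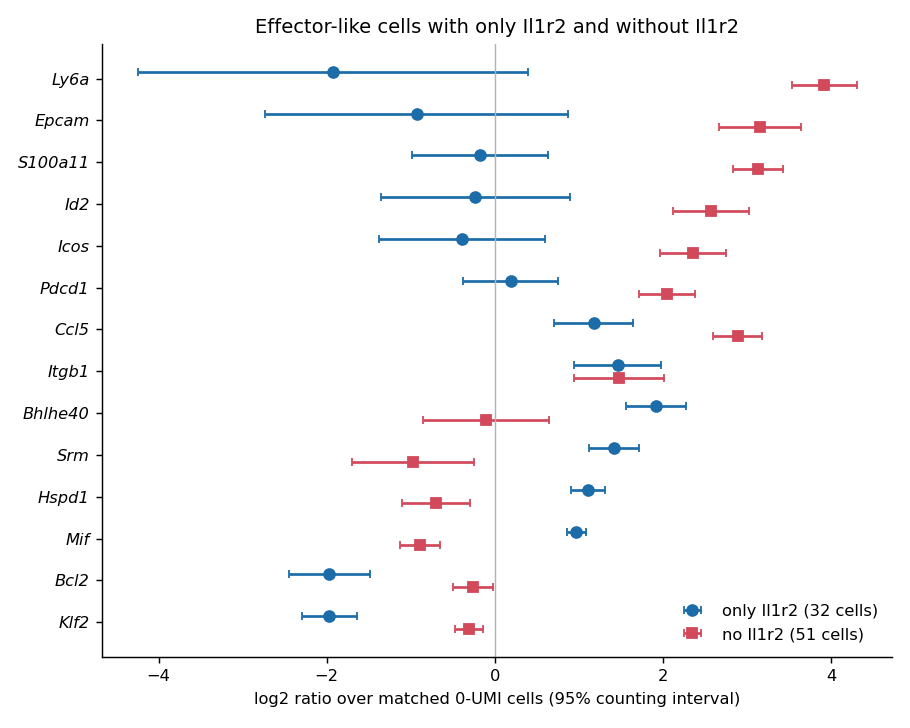
Log2 ratio over depth-matched 0-UMI cells (with 95% counting intervals) of named genes in members with Il1r2 as their only rule gene and in members without Il1r2. Ly6a, S100a11 and Icos have intervals above 0 in members without Il1r2 and intervals that span 0 in the others, Srm and Mif lie on opposite sides of 0, and Itgb1 is above 0 in both.

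The 5 cells with Gzmb had a median of 3653 UMIs. They carried the effector Treg genes at a summed log2 ratio of 2.56, with a median of 1.21 over the list. They held 30 of the 68 Ly6a UMIs and 28 of the 55 Id2 UMIs, and 0 Gpr83 UMIs where 5.82 were expected. Among them was the library 2 cell with 7 Klrk1 UMIs described above, which gave 9 of the 28 Id2 UMIs. The 20 cells with S100a4 had the effector Treg list at 1.85 and the cytotoxic list at 1.22.

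Cells were also grouped by their number of rule UMIs, the value that chose the members, so the levels of other genes by that number are a description. In cells with 1, 2, 3 and at least 4 rule UMIs (191, 37, 14 and 45 cells), the summed effector Treg list was at 0.40, 0.58, 1.16 and 1.27, and the cytotoxic list at 0.44, 0.60, 0.67 and 0.75. The egress list was at -0.21, -0.55, -0.61 and -0.56, and the interferon list at -0.24, -0.42, -0.24 and -0.66. The S100, annexin, galectin and actin-binding list, summed over UMIs so that abundant genes weigh most, was near 0 throughout, at -0.0342, -0.0478, -0.00807 and 0.0499. The genes of that list taken singly here were above 0 in each class. S100a11 was at 0.69, 0.28, 1.04 and 3.05, Anxa2 at 0.69, 0.65, 1.67 and 1.36, and Tagln2 at 0.67, 0.78, 0.36 and 1.78. Nkg7 was at 0.67, 1.47, 0.87 and 0.46, and so was lowest in the cells with most rule UMIs. Ccl5 was at 1.75 (1.52 to 1.98) with 1 rule UMI and at 2.81 with at least 4. Ly6a was at -0.80, -0.67 and -0.65 with 1 to 3 rule UMIs, with intervals that span 0, and at 3.90 (3.50 to 4.30) with at least 4, where 64 of the members' 68 UMIs lay. Gpr83 gave 145 UMIs where 206 were expected with 1 rule UMI, 19 where 44.7 were expected with 2, 0 where 17.9 were expected with 3, and 2 where 58.4 were expected with at least 4.

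**Figure D5:**
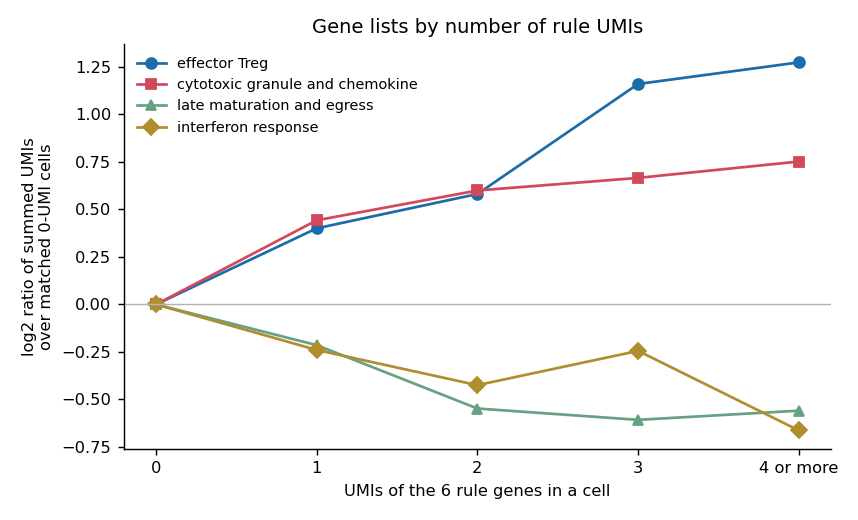
Log2 ratio of the summed UMIs of 4 gene lists over depth-matched 0-UMI cells (vertical axis), in cells with 1, 2, 3 and at least 4 rule UMIs (horizontal axis; 0 by construction at 0 UMIs). The effector Treg list runs from 0.40 to 1.27 and the late maturation and egress list from -0.21 to -0.56.

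The effector-like cells were set beside the TCR-signalled and IL-2-signalled cells, defined by at least 3 UMIs summed over Nr4a3, Egr2, Egr3, Xcl1, Cd83 and Gadd45b, and over Socs2, Gpr83, Cish, Il2rb and Lrrc32. Of the 96, 23 were also TCR-signalled (24.0% of the effector-like and 4.83% of the 476 TCR-signalled cells) and 34 were IL-2-signalled (35.4% of the effector-like and 1.49% of the 2289 IL-2-signalled cells). Of 0-UMI cells of matched depth 13.6% were TCR-signalled and 53.0% IL-2-signalled, and of all G1 cells 6.58% and 31.7% were. The 96 effector-like cells, the other 453 TCR-signalled cells and the other 2255 IL-2-signalled cells were each set against the same 4540 cells in none of the sets. The effector-like cells then had 198 genes called higher (3.24%) and 212 lower (3.46%) of 6119, against 370 (5.77%) and 361 (5.62%) of 6418 in TCR-signalled and 54 (0.733%) and 61 (0.828%) of 7366 in IL-2-signalled cells. The effector Treg list had medians of 1.07 in effector-like, 0.22 in TCR-signalled and -0.19 in IL-2-signalled cells, and the TCR and NF-kB list medians of 0.42 in effector-like and 1.30 in TCR-signalled cells. Some genes named above were called higher in both effector-like and TCR-signalled cells. Batf was at 1.07 in effector-like and 1.53 in TCR-signalled cells, Bhlhe40 at 1.76 and 2.15, and Cd44 at 1.08 and 0.86. Other named genes had intervals that span 0 in TCR-signalled cells. Among them, Id2 was at 1.71 in effector-like and 0.03 in TCR-signalled cells, Icos at 1.21 and -0.08, and S100a11 at 1.93 and -0.08. The 96 effector-like cells kept their TCR-signalled and IL-2-signalled members here, while the 4540 control cells held none. These comparisons share their control cells, and the differences between the sets were not tested.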

How the data were processed

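The cells were captured with the Chromium Single Cell 3' kit, version 2, per the labels' protocols. The first table holds deposited UMI counts, not normalized, for 27998 genes in 8273 cells. The second, also deposited, holds log2 values of 9571 genes in 7231 cells. A check against the counts showed that each cell's counts had been divided by a factor of its own before 1 was added and the log2 taken (factors 0.168 to 5.68, median 0.768). It served to choose G1 cells and as an alternative. Per the submitters' processing notes the tools included Cell Ranger 2.0.2 and CASAVA 2.20, with R 3.4.1, and the build was mm10. The cell filters, the way G1 cells were chosen and any removal of doublets are not given in the sources used here, and no doublet caller was run. Symbols were matched to 27645 identifiers, and 353 had none.

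Barcode suffixes 1 to 4 were taken as libraries, each unassigned to a sample. The members and gene lists were chosen with earlier results of these data known. Rule genes were left out of totals and findings. Cells were grouped by library and by 5 depth bins within it, and the counts of 0-UMI cells were scaled to the members' totals in each. A list member was measured at 50 UMIs or more. Of the 24 lists, 4 genes were not analysed here, and a few are not reported here by name. The named genes were the 15 called genes with the largest ratio each way, the called members of the lists, and the cytokine, receptor, identity and other-type genes. The genes shown by number of rule UMIs and by Il1r2, the rare genes, the single cells and the promoter genes and motifs were chosen after values were seen. Promoters were found for 9 of 12 genes looked for. Intervals treat UMIs as independent and cover counting error only. The contrast was tested on simulated counts with counting error only, so that test does not cover spread between cells. Alternatives covered depth strata, scaling, the rule, the comparison cells, cell filters, weights, the gene minimum and leave-one-out by library. Computing was done with pandas 2.3.3, numpy 2.4.6 and scipy 1.17.1 in Python 3.11.15, and plots with matplotlib 3.10.9.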

Additional observations from a re-analysis of the deposited data

Results flagged for a closer look

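Cells left out of the authors' normalized table, which no comparison of effector-like with 0-UMI cells above used, also met the rule. Of these 1042 cells, 38 had at least 2 rule UMIs, or 3.65% (exact 95% interval 2.59 to 4.97%), against 1.33% of G1 cells. They were 14, 15, 2 and 7 cells in libraries 1 to 4. The median depth of the 38 was 10665 UMIs, against 6934 UMIs in the 96 effector-like G1 cells, and that of all 1042 cells was 2869 UMIs, against 3157 UMIs in G1 cells. S100a6 was found in 19 of the 38, Lgals3 in 16, Il1r2 in 14, S100a4 in 3, Cxcr6 in 2 and Gzmb in 0. The difference between the shares, and the part of depth in it, was not tested.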

How the results depend on the processing

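No paired analysis was possible because every sample carries the number 1 and no column maps to a sample. Counts of genes called higher and lower were 673 and 694 in library strata alone, 179 and 67 with each cell counted alike, 288 and 57 in thinned cells, 382 and 104 without the 5% deepest cells, 392 and 149 without cells with markers of other types and 229 and 82 without cycling cells. They were 429 and 309 with the rule without Lgals3 and 423 and 234 with no minimum. Without Il1r2 in the rule they were 448 and 173, of which 128 and 61 were shared with the 273 and 234. With members by the 5 other genes, an alternative added after seeing the data, they were 447 and 151. Fewer libraries reach 20 cells in several of these, so fewer directions are checked. The alternatives that left out 1 library gave 257 to 330 higher and 210 to 234 lower. Of 72 named called genes, 10 kept their call under all 28 alternatives on counts: Anxa2, Ccl5, Gpr83, Id2, Lef1, Ly6a, Ms4a6b, Pdcd1, S100a11 and Tagln2. Of 2088 values for the 72, 356 lost the call and 18 changed sign.

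List medians moved as follows, and the cause was not tested. In library strata alone: chemokine receptors -0.42, egress -1.09, double-positive -1.06, MYC 0.76, interferon -0.96, S phase 1.14, glycolysis 0.69 and resting -0.92. With at least 3 rule UMIs: effector Treg 1.31. Without Lgals3: chemokine receptors -0.34. Without Il1r2: effector Treg 1.57, S100 0.34, chemokine receptors 0.29, egress -0.37, TCR -0.32, IL-2 -0.17, MYC -0.44, interferon -0.0805, glycolysis 0.14, effector factors 0.35, Nfkb2 -0.84, Srm -1.13, Pgam1 -0.086 and Batf -0.27. With the 5 other genes: 1.52, 0.34, 0.31, -0.41, -0.31, -0.21, -0.37, -0.11 and 0.14 for the first 9 of these lists, Nfkb2 -0.73, Srm -0.98 and Batf -0.20. Thinned: effector Treg 1.41, Treg identity 0.27, S100 0.45, chemokine receptors 0.0456, IL-2 -0.00914, MYC -0.18, interferon -0.88, glycolysis 0.67, cytokine receptors 0.38, cytokines 0.56, Gm13546 0.0268, Socs2 0.25, Itgav -1.17 and Cd69 0.0632. Whole table: Treg identity -0.30, double-positive -1.12 and cytokines -0.26. Without the 5% deepest: effector Treg 1.29, Treg identity 0.11, S100 0.35, chemokine receptors 0.24, IL-2 -0.12, MYC -0.22, cytokines 0.29 and Srm -0.15. Without other types: effector Treg 1.31, Treg identity 0.11, S100 0.31, chemokine receptors 0.25 and B930036N10Rik -0.97. Without cycling cells: S100 0.34, chemokine receptors 0.41, MYC -0.83, S phase -0.40, resting -0.28, cytokines 0.40, Gm29666 1.16, Socs2 0.42, Nfkb2 -0.42 and Srm -1.86. Each cell alike: Treg identity -0.0204, S100 0.26, chemokine receptors 0.26 and cytokines 0.25. On the deposited log2 values, as a difference of means: effector Treg 0.13, Treg identity 0.0493, chemokine receptors -0.0584, egress -0.30, IL-2 -0.0263, interferon -0.13, resting -0.19, effector factors 0.0495 and Gm29666 0.00234.

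Shares of members were 0.816% over all libraries with at least 3 rule UMIs (0.997% in library 2, 0.336% in library 3), 0.507% thinned (0.522%, 0.506%, 0.270% and 0.703% in libraries 1 to 4) and 1.62% in the whole table. With 1 library left out, the cytokine list ranged from -0.26 to 0.24 and the chemokine receptor list from -0.31 to -0.0802. The G2 and M phase list ranged from -0.50 to 0.63, within its spread between libraries, as did the other lists.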
